A study of Mus musculus with 6 samples.

Results

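The 8 genes described here are the transcription factors Olig1, Olig2, Sox2 and Sox10, the intermediate filament gene Nes, the Notch ligands Dll1 and Dll3 and the Notch target Hes5. They were chosen by their CPM (counts scaled to an equal library total) in the same dopamine and blank libraries that are described here, and were taken by symbol from a table of 56691 mouse genes. All 8 have an entry. Of these, 6 passed the filter on low counts that left 15420 genes for testing, while Hes5 and Sox10 did not. RNA came from KVTR cells, which the labels call mouse primary clear cell renal carcinoma cells, a kidney tumour type of tubule epithelium. The groups were 3 libraries of dopamine-treated cells and 3 libraries of cells labelled blank. Of genotype, dose and duration of treatment nothing was given, nor was it stated whether libraries came from separate cultures. Any p-value therefore measures the spread among 6 libraries and may reflect technical differences.

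Olig1 and Olig2 are basic helix-loop-helix factors that specify the oligodendrocyte lineage in the central nervous system, and Sox10 is a SoxE factor that oligodendrocyte and neural crest derivatives need. Sox2 maintains neural stem and progenitor cells, and nestin (Nes) is a filament protein of such cells that activated astrocytes also make. In the Notch pathway a ligand such as Dll1 on one cell binds a Notch receptor on its neighbour, the receptor is cut, and its freed domain joins the DNA-binding protein RBPJ to switch on repressor genes such as Hes5. Dll3 is a divergent ligand that lowers Notch signalling in the cell that makes it and does not activate receptors on neighbours.

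Library totals ran from 16771499 to 23375622 counts. Dopamine 2, dopamine 3 and blank 2 lay close together, with r of 0.978 to 0.983 between them across the genes tested (log2 CPM), while the other pairs of libraries gave 0.898 to 0.951. Genes are not replicates, so these r values describe likeness between libraries. The blank count columns carry the numbers 2 and 3 and, in the third case, no number, and that library is called the unnumbered blank library.

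Promoters are shown for the Notch target whose level was near 0 and for the member that varied most between libraries. Sequences are those of RefSeq on GRCm38.p6, 250 bases before to 50 after the transcription start, and 6 of the 8 members had an entry. Olig1 and Sox10 had none. In Hes5 (chr4:154960673-154960972, plus strand) capitals mark the RBPJ motif TGTGGGAA on either strand, and in Olig2 (chr16:91225300-91225599, plus strand) they mark the TATA motif TATAAA.
Hes5: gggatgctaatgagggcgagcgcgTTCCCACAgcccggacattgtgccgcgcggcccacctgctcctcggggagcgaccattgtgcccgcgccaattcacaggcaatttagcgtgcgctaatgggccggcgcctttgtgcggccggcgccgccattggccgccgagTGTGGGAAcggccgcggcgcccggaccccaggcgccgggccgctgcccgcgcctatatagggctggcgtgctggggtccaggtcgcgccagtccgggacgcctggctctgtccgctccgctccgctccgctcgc
Olig2: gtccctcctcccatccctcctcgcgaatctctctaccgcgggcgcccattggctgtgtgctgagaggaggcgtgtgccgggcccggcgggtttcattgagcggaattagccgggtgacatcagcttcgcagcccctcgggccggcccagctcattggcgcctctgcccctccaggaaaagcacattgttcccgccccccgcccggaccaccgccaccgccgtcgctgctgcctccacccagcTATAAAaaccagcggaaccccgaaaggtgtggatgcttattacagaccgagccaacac

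The Hes5 window holds the RBPJ motif 2 times, on opposite strands, starting 226 and 84 bases before the transcription start. Of 32851 promoter windows of the same length, 1.86% held this motif on either strand, and 15 windows (0.0457%) held it at least 2 times. No other member with an entry had it. The Olig2 window was the only member window with TATAAA, a motif found in 13.6% of all windows. It starts 8 bases before the annotated transcription start, and whether it acts as a TATA box was not tested. These matches describe letters in the window and do not show binding.

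Levels of the members fell into separate tiers when compared per length, as FPKM (counts scaled by exonic length and by the library total). Nes was the most abundant at 116 to 189 FPKM over the 6 libraries, with a median of 158. Its mean lay at or above that of 98.5% of the genes tested. Sox2 followed at 59.8 to 135 FPKM (median 90.1), Olig1 at 22.2 to 117 FPKM (median 41.6) and Olig2 at 8.30 to 58.6 FPKM (median 9.17). Neighbours in this order overlapped in their ranges, although Nes was above Sox2 and Olig1 above Olig2 in 6 of 6 libraries, and Sox2 above Olig1 in 5 of 6.

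The ligands and the Notch target formed the lower tiers. Dll1 stood at 0.589 to 0.923 FPKM, with no overlap with the values of Olig2 above it. Dll3 stood at 0.135 to 0.502 FPKM, below each value of Dll1. Hes5 reached 0.188 FPKM at most, and its range overlapped that of Dll3 although Dll3 was higher in 6 of 6 libraries. Sox10 had 0 counts in all 6 libraries.

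**Figure D1:**
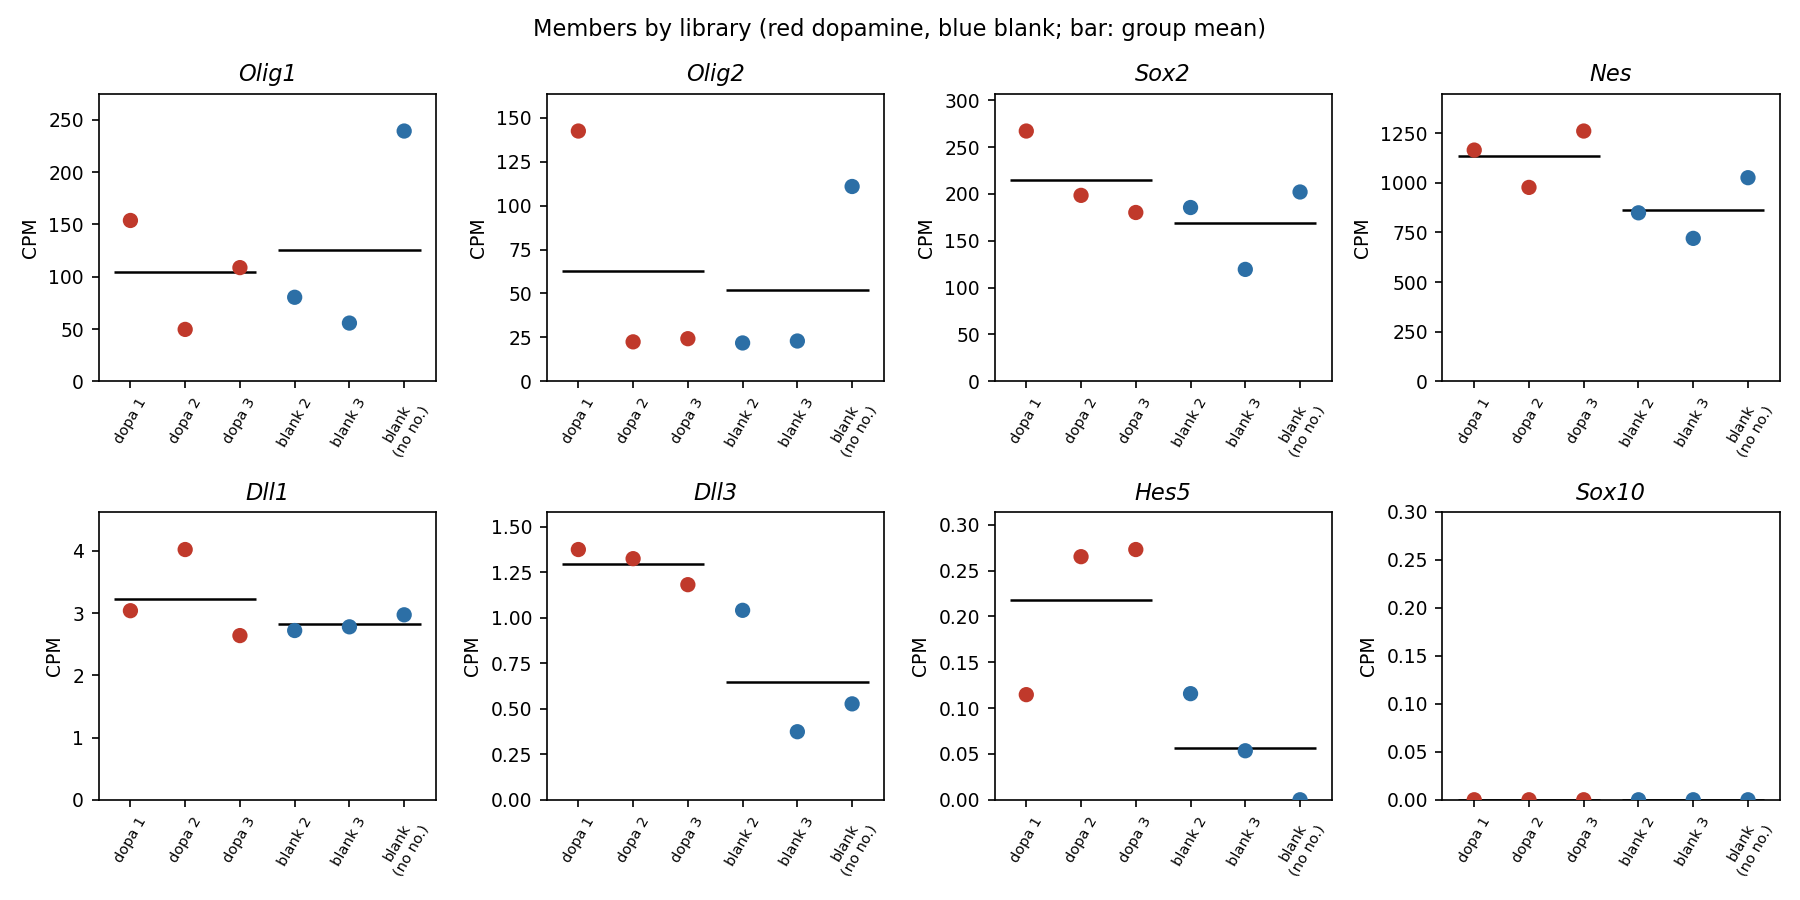
Each panel plots CPM (scaled by TMM factors, linear axis from 0) of a member in 3 dopamine libraries (red, left) and 3 blank libraries (blue, right), with a bar at the group mean. Olig2 is highest in dopamine 1 (142.5 CPM) and the unnumbered blank library (111 CPM), the other 4 libraries lie between 21.8 and 24.2 CPM, and Sox10 is at 0 in all 6.

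Olig2, which encodes the factor that opens the oligodendrocyte programme, varied between libraries inside each group far more than between the groups. It stood at 142.5, 22.4 and 24.2 CPM in dopamine 1, 2 and 3, against 21.8, 22.9 and 111 CPM in blank 2, blank 3 and the unnumbered library. A single library of each group was thus high, the other 4 lay within a narrow band, and the groups overlapped. The group means were 63.1 ± 68.8 CPM with dopamine and 51.9 ± 51.1 CPM in blank (SD, n = 3 each), a log2 fold change of 0.28 ± 0.93 (SE). Without dopamine 1 the log2 fold change was -1.15, without the unnumbered blank library it was 1.49, and it was -0.094 without blank 2 and -0.074 without blank 3, so its sign hung on single libraries of both groups.

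Olig1, the paralogue that supports oligodendrocyte maturation, shared the same high libraries with a smaller spread. It was at 154, 49.6 and 109 CPM in dopamine 1, 2 and 3, and at 80.4, 55.7 and 239 CPM in blank 2, blank 3 and the unnumbered library. Its means were 104 ± 52.3 CPM with dopamine and 125 ± 99.7 CPM in blank (SD, n = 3 each; log2 fold change -0.27 ± 0.62 SE), and the log2 fold change ran from -0.66 without dopamine 1 to 0.61 without the unnumbered blank library, with 0.056 without dopamine 2. In these bulk libraries, fewer cells that transcribe a gene and less RNA per cell cannot be told apart.

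The Olig genes lie close together on chromosome 16 in the deposited table (GRCm39), both on the plus strand. Olig2 (ENSMUSG00000039830) spans 91022345 to 91025565 and Olig1 (ENSMUSG00000046160) spans 91066660 to 91068821, with 41094 bases between them. Their ratio was not fixed across libraries. Per length, Olig1 exceeded Olig2 by 1.26-fold in dopamine 1, 2.59-fold in dopamine 2 and 5.25-fold in dopamine 3, against 4.31-fold in blank 2, 2.84-fold in blank 3 and 2.53-fold in the unnumbered blank library. The last 157 bases of Olig1 overlap the antisense gene Gm15966, which had no counts.

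Sox2, a core factor of neural stem cells, was steadier. It was at 267, 198 and 180.2 CPM in dopamine 1, 2 and 3, and at 186, 119 and 202 CPM in blank 2, blank 3 and the unnumbered library. The groups overlapped, with the lowest value in blank 3 and the highest in dopamine 1. Means were 215 ± 45.9 CPM with dopamine and 169 ± 43.7 CPM in blank (SD, n = 3 each), a log2 fold change of 0.35 ± 0.27 (SE). Sox2 (ENSMUSG00000074637, chromosome 3, 34704554 to 34706610) lies wholly within the span of the noncoding gene Sox2ot on the same strand, which averaged 1.56 FPKM. Whether their exons overlap, so that reads could be shared, was not checked.

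Nes, the most abundant member, was at 1165.5, 977 and 1261.5 CPM in dopamine 1, 2 and 3, and at 849, 720.4 and 1026 CPM in blank 2, blank 3 and the unnumbered library. A single blank value, that of the unnumbered library, lay above the lowest dopamine value. Means were 1135 ± 145 CPM with dopamine and 865 ± 154 CPM in blank (SD, n = 3 each), a log2 fold change of 0.39 ± 0.26 (SE) that stayed between 0.28 and 0.53 when single libraries were left out. Nes (ENSMUSG00000004891) is on chromosome 3 at 87878385 to 87887758.

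Sox10 (ENSMUSG00000033006, chromosome 15, 79039108 to 79049440) was not detected. With 0 counts in each library, up to 0.174 CPM in blank 2, the library with the highest limit, and 0.133 CPM in dopamine 2, the library with the lowest, would be allowed by 3 counts. No gene in the deposited table overlaps Sox10, so sharing of reads with another annotated gene did not enter this value. Its SoxE relatives, named after their values were seen, were present. Sox9, a factor of glial specification and of astrocytes, was at 23.2 to 42.1 FPKM in dopamine and 14.9 to 34.4 FPKM in blank libraries, and Sox8, which acts beside Sox10 in oligodendrocytes, at 3.62 to 7.97 and 2.38 to 4.74 FPKM.

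Dll1 (ENSMUSG00000014773, chromosome 17, 15587616 to 15597134) was the member with the least spread. It was at 3.04, 4.02 and 2.64 CPM in dopamine 1, 2 and 3, and at 2.72, 2.78 and 2.97 CPM in blank 2, blank 3 and the unnumbered library, with overlapping groups. Means were 3.23 ± 0.712 CPM with dopamine and 2.82 ± 0.132 CPM in blank (SD, n = 3 each), a log2 fold change of 0.19 ± 0.36 (SE). Without dopamine 2 it was -0.0035.

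Dll3 (ENSMUSG00000003436, chromosome 7, 27992978 to 28001663) was the only member whose groups did not overlap. It was at 1.38, 1.33 and 1.18 CPM in dopamine 1, 2 and 3, and at 1.04, 0.374 and 0.527 CPM in blank 2, blank 3 and the unnumbered library. These values rest on 24, 30 and 26 counts with dopamine and on 18, 7 and 11 counts in blank. Means were 1.29 ± 0.10 CPM with dopamine and 0.648 ± 0.35 CPM in blank (SD, n = 3 each), a log2 fold change of 0.998 ± 0.51 (SE). Without blank 3 it was 0.73, and without blank 2 it was 1.496. The members were chosen on this contrast, and groups did not overlap for 8.48% of all genes tested.

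Hes5 (ENSMUSG00000048001, chromosome 4, 155045380 to 155046828) was near the detection limit. Its counts were 2, 6 and 6 in dopamine 1, 2 and 3, against 2 in blank 2, 1 in blank 3 and 0 in the unnumbered blank library, which did not pass the filter on low counts. Dopamine 1 and blank 2 both had 2 counts, and at 0.1146 and 0.1157 CPM the groups overlapped. Over 756 of its 1449 bases Hes5 overlaps the span of the antisense gene Gm20421. Overlap of their exons was not checked and how reads in shared bases were counted is unknown, so the level of Hes5 may be understated.

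None of the members was called. They were chosen on this contrast, so the counts that follow are a description from which nothing is read. edgeR's quasi-likelihood test at a Benjamini-Hochberg adjusted p of 0.05 called 0 of the 6 members tested and 0% of all genes tested, where the smallest adjusted p was 0.9997. At an unadjusted p under 0.05 were 2.94% of all genes and 0 members. DESeq2, run without the filter on low counts, called 24 of 29345 genes and 0 members, with no adjusted p for Hes5 and Sox10. Groups did not overlap for 1 of the 6 tested members, Dll3, and for 8.48% of all genes tested. A log2 fold change above 0 was found for 5 of the 6 tested members and for 51.7% of all genes tested.

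**Figure D2:**
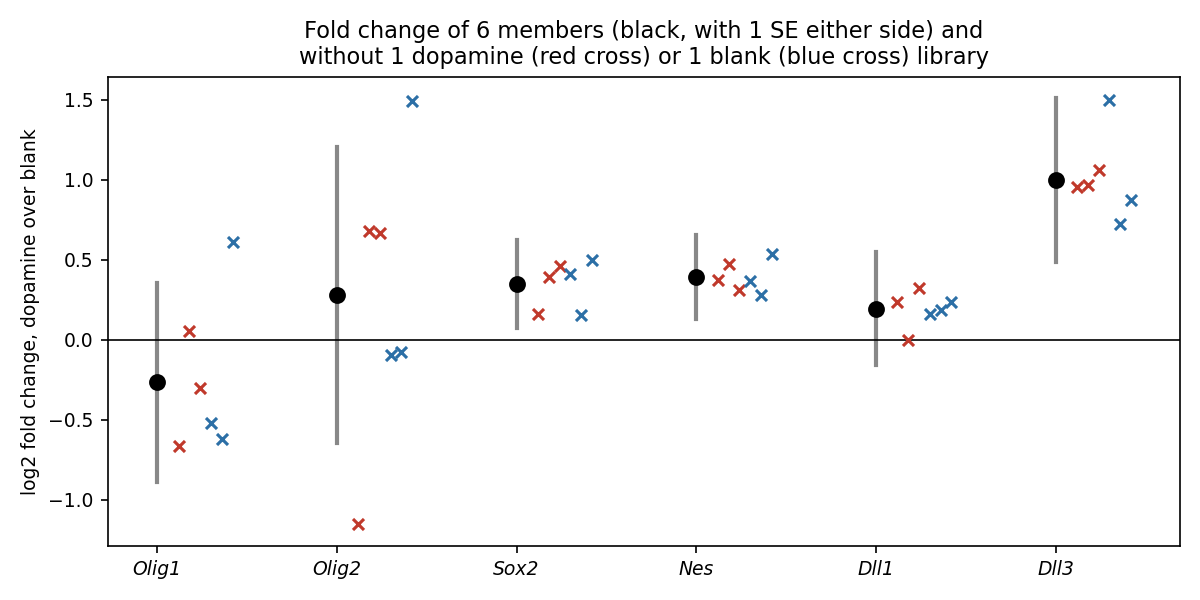
Black points give the log2 fold change (dopamine over blank) of the 6 tested members with 1 SE either side, and crosses give it without 1 dopamine (red) or 1 blank (blue) library. Olig2 moves between -1.15 and 1.49 as single libraries are left out, while Nes stays between 0.28 and 0.53.

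The members also differed in how much they varied over the 6 libraries as a whole. The root mean square deviation of log2 CPM from the gene's own mean was 1.16 for Olig2, a value that 93.7% of tested genes did not exceed. It was 0.80 for Olig1 (84.4%), 0.63 for Dll3 (75.5%), 0.34 for Sox2 (45.3%), 0.27 for Nes (31.5%) and 0.20 for Dll1 (16.04%). Between members, profiles centred on their means lay closest for Sox2 and Nes, with a root mean square difference of 0.24 log2 units, and farthest apart for Olig2 and Dll3 (1.31). Olig1 and Olig2 differed by 0.65.

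By the same measure, the genes most like each member over the 6 libraries were sought among 13110 genes with a mean of at least 1 CPM. Closest to Olig2 were Ociad2 (0.17 log2 units), the receptor tyrosine kinase feedback inhibitor Spry4 (0.17) and the G1 cyclin gene Ccnd1 (0.19). Ccnd1 was at 3089 CPM in dopamine 1, 502 in dopamine 2 and 704 in dopamine 3, against 455 in blank 2, 634 in blank 3 and 2937 CPM in the unnumbered blank library. The same libraries were high for Ccnd1 as for Olig2. Closest to Olig1 were the cholesterol synthesis gene Cyp51 (0.13), Ccdc9b (0.19) and Trabd2b (0.19), a metalloprotease that acts on Wnt proteins. Cyp51 was at 167 CPM in dopamine 1, 46.7 in dopamine 2 and 111 in dopamine 3, against 68.2 in blank 2, 58.1 in blank 3 and 259 CPM in the unnumbered blank library.

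Of the steadier members, Nes lay closest to Rasgrf1 (0.053), Klhl10 (0.060) and Cenpv (0.069), Sox2 to Macrod1 (0.083), Rfxank (0.089) and Stxbp6 (0.12), Dll1 to Siah2 (0.075), P3h4 (0.082) and Kdm6b (0.082), and Dll3 to Ksr1 (0.21), Gem (0.22) and Dnai2 (0.24), each as a root mean square difference in log2 units. With 6 libraries many genes can match a profile, so these names describe likeness in these libraries and nothing more.

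**Figure D3:**
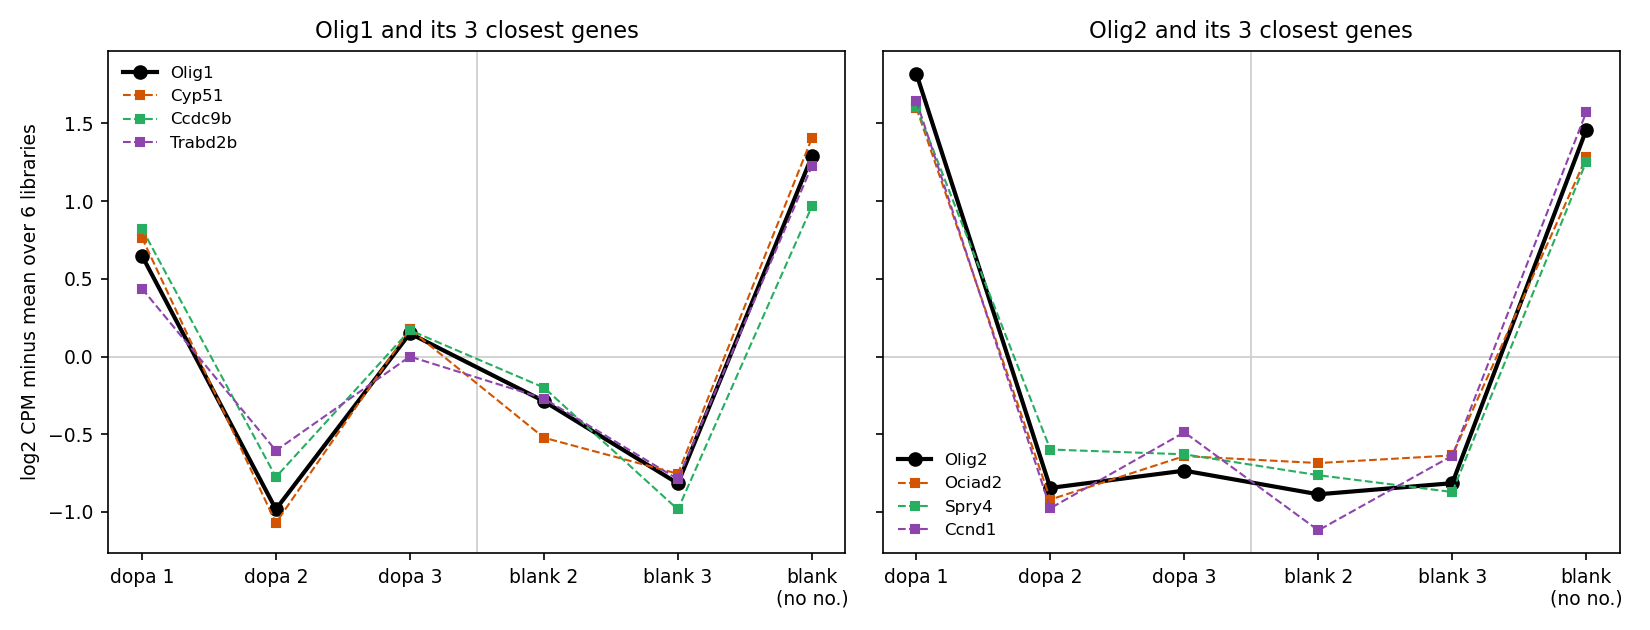
Lines give log2 CPM minus the gene's mean over the 6 libraries for Olig1 (left) and Olig2 (right) in black and for the 3 closest genes in colour, with dopamine libraries left of blank libraries. For both genes dopamine 1 and the unnumbered blank library are the highest, and for Olig2 the other 4 libraries are nearly level.

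The most abundant other genes of the Notch pathway stood well above the member ligands, although the ligand gene Dll4 and the receptor gene Notch4, named after their values were seen, averaged 0.302 and 0.154 FPKM, below Dll1. Of 9 tested genes among 10 other ligands and receptors, 0 were called in either direction, with a median log2 fold change of -0.28 beside 0.012 over all genes tested. Jag1, a ligand of the Serrate type, was the most abundant of them, at 15.9, 6.78 and 6.57 FPKM in dopamine 1, 2 and 3 and 10.7, 20.8 and 11.1 FPKM in blank 2, blank 3 and the unnumbered library. Each of these values is above each Dll1 value, whereas the ranges of Jag1 overlapped between the groups (log2 fold change -0.52 ± 0.41 SE). Receptors averaged 10.9 FPKM for Notch2, 9.30 for Notch3 and 7.81 for Notch1 over the 6 libraries. Their log2 fold changes were 0.07 ± 0.32, -0.45 ± 0.24 and 0.08 ± 0.35 (SE).

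Of 26 genes that process ligands and receptors, all 26 were tested and 0 were called (median log2 fold change 0.041). Neurl1a, a ubiquitin ligase that acts on Notch ligands, alone had an unadjusted p under 0.05 and had an adjusted p of 0.9997 by edgeR. It averaged 3.73 ± 0.605 CPM with dopamine and 8.37 ± 4.92 CPM in blank (SD, n = 3 each; log2 fold change -1.16 ± 0.47 SE), and it was lower in 3 of 3 dopamine libraries than in any blank library. In the other direction, Mfng (log2 fold change 0.99 ± 0.45 SE) and Rfng (0.30 ± 0.20), which encode Fringe enzymes that add sugars to Notch, and the Deltex gene Dtx1 (0.49 ± 0.22) were higher in 3 of 3 dopamine libraries than in any blank library. These 3 were named after their values were seen, and groups did not overlap for 8.48% of all genes tested. The most abundant were Adam10, the protease that cuts ligand-bound receptor, at a mean of 33.7 FPKM, the gamma-secretase subunits Psenen (29.3) and Ncstn (21.98), and Dtx3 (23.2), a Deltex family member. Their log2 fold changes lay between -0.29 and 0.32.

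Among 21 genes of the nuclear complex and its targets, 18 were tested and 0 were called (median log2 fold change -0.0053). Beside Ccnd1, abundant genes of this list included the repressor gene Bhlhe40 (14.0 FPKM on average) and the RBPJ cofactor gene Snw1 (11.3). The related Notch targets Hes1 and Hey1, named after their values were seen, were well above Hes5. Hes1 was at 10.2, 4.85 and 11.5 FPKM in dopamine 1, 2 and 3 and 5.41, 12.5 and 12.2 FPKM in blank 2, blank 3 and the unnumbered library. Hey1 averaged 11.1 FPKM and Rbpj itself 6.59 FPKM. Hes5 did not exceed 0.188 FPKM in the same libraries, and its mean of 0.0977 FPKM was above those of Heyl (0.0392), Hes2 (0.0373) and Hes3 (0.0152). Hey2 and Hes7 averaged 0.583 and 0.565 FPKM.

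**Figure D4:**
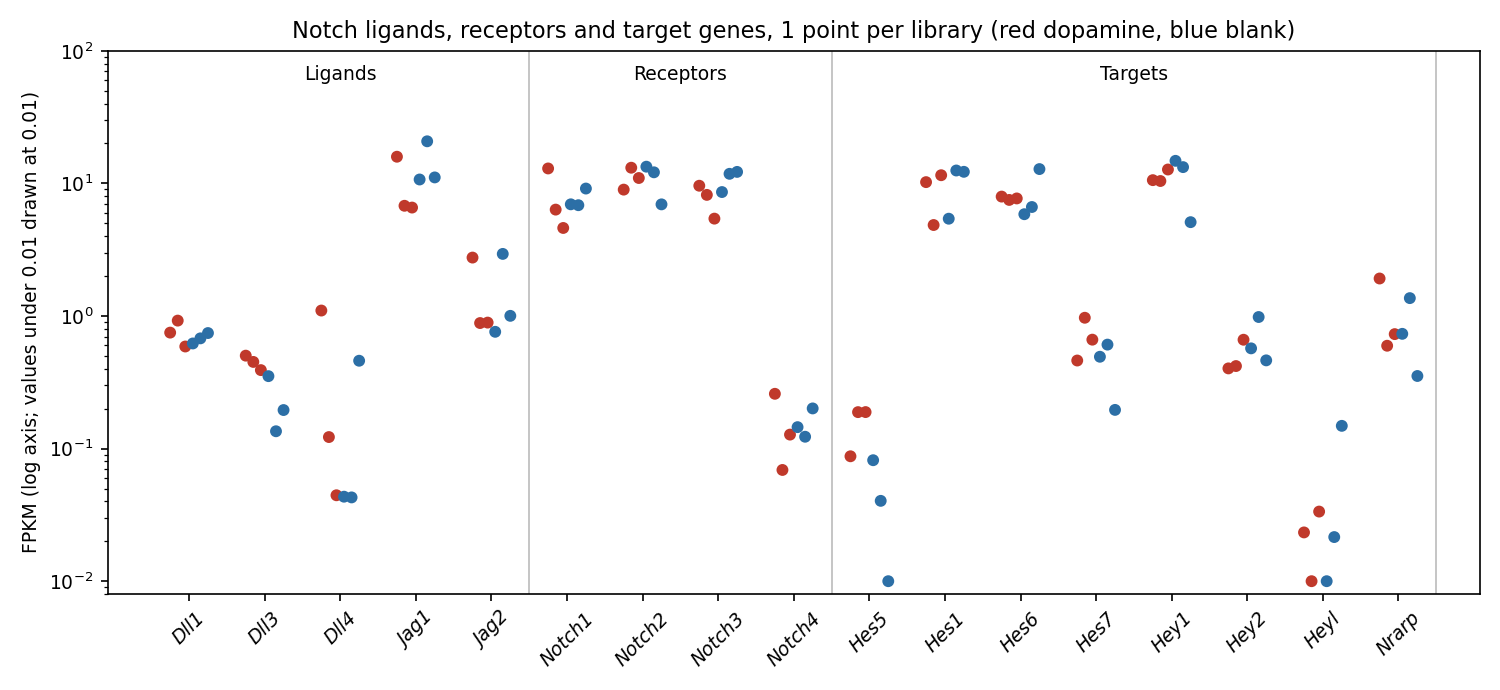
Points give FPKM (log axis, values under 0.01 drawn at 0.01) of Notch ligands, receptors and targets in each dopamine (red) and blank (blue) library. Dll1 and Dll3 stay under 1 FPKM and Hes5 under 0.2, while Jag1, Notch1 to Notch3, Hes1, Hes6 and Hey1 lie above 4 FPKM.

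The labelled cell type was checked against lineage genes. Of 30 genes of renal tubule epithelium, 23 stayed under 1 FPKM in all 6 libraries and 4 had 0 counts throughout. The nephron factors Pax2 and Pax8 averaged 0.201 and 0.120 FPKM. Aqp1 (24.8 FPKM), a water channel, Lrp2 (10.6), an endocytic receptor, and Mme (2.36), a peptidase, were the most abundant of the list, and other tissues express these as well. Most genes of this list were thus low or absent, while Nes, Sox2, Olig1 and Olig2 were all present. The list is of tubule epithelium and does not by itself settle the labelled tumour identity.

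Oligodendrocyte progenitor genes were present in part. Of 31 such genes besides the members, 26 were tested and 0 were called (median log2 fold change -0.20). Ncan, a brain matrix proteoglycan, averaged 62.6 FPKM, the transcription factor gene Sox4 40.9 and Id2, an inhibitor of helix-loop-helix factors, 35.2. Against these, Gpr17 and Zfp488, which mark committed progenitors, and Neu4 were at or near 0, with at most 0.0199 FPKM in any library. Pdgfra and Cspg4, the surface markers of progenitors, named after their values were seen, averaged 1.70 and 1.66 FPKM. Pdgfra was at 11.8 ± 2.02 CPM with dopamine and 22.3 ± 1.94 CPM in blank (SD, n = 3 each; log2 fold change -0.91 ± 0.23 SE, adjusted p = 0.9997 by edgeR), lower in 3 of 3 dopamine libraries than in any blank library. Among the 26 tested genes, 2 had groups that did not overlap, Pdgfra and Ptprz1, both lower with dopamine. Groups did not overlap for 8.48% of all genes tested.

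Myelin genes were low, as was Sox10. Of 17 genes, 9 stayed under 1 FPKM in all libraries, 9 were tested and 0 were called (median log2 fold change 0.14). Cnp, a myelin-associated phosphodiesterase that other cells make too, averaged 25.7 FPKM, Ugt8a 3.72 and Nkain2 3.24. Schwann cell and neural crest genes, the other lineage that uses Sox10, were led by Gap43 (60.1 FPKM), Pmp22 (30.4) and Twist1 (19.7), whereas the crest factor gene Foxd3 stayed at or below 0.0710 FPKM. Of 17, 15 were tested and 0 were called (median log2 fold change -0.044).

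Many astrocyte genes and some neural stem genes were abundant. All 25 neural stem and radial glia genes passed the filter, 10 averaged at least 10 FPKM, 0 were called, and the median log2 fold change was 0.14. Among the low ones, named after their values were seen, were the stem cell factor genes Sox3 (0.435 FPKM) and Pax6 (1.07). Vim, a filament gene, averaged 1169 FPKM, the matrix gene Tnc 196 and the lipid carrier gene Fabp7 88.6. Of 22 astrocyte genes, 17 averaged at least 10 FPKM, 20 were tested and 0 were called (median log2 fold change 0.29). They were led by Cst3 (1302 FPKM), Clu (215) and Gfap (196), the astrocyte filament gene.

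Gfap and the summed level of the astrocyte genes were lowest in the libraries where Olig2 was highest. Gfap was at 102, 1219 and 1316 CPM in dopamine 1, 2 and 3, and at 1630, 815 and 32.4 CPM in blank 2, blank 3 and the unnumbered library. Dopamine 1 and the unnumbered blank library were far below the other 4, and the groups overlapped. The summed level of the 22 astrocyte genes was 3028, 14507 and 12443 CPM in dopamine 1, 2 and 3, and 13067, 4962 and 2214 CPM in the blank libraries in the same order. In blank 3 this sum was also below those of dopamine 2, dopamine 3 and blank 2, although Olig2 was at 22.9 CPM there and at 21.8 CPM in blank 2. The part of the astrocyte genes in the values of the Olig genes was not tested.

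Genes of other lineages were also read beside the members. Neuron and neuroblast genes (25, of which 15 tested, 0 called, median log2 fold change 0.22) were led by Stmn2 (61.5 FPKM), Tubb3 (10.4) and Map2 (10.3), with Dcx and Rbfox3 at or near 0. The median was -1.21 without dopamine 1 and 0.77 without dopamine 2. Their summed level ranged over 331 to 1147 CPM with dopamine and 344 to 998 CPM in blank. Fibroblast and pericyte genes (13, all tested, 0 called, median -0.38) were led by Acta2 (154 FPKM), Col1a1 (135) and Thy1 (84.3), with sums of 972 to 3632 CPM under dopamine, against 2626 to 3760 CPM for blank.

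Endothelial genes (9, of which 4 tested, 0 called, median log2 fold change -1.26) were led by Cdh5 (16.8 FPKM), Flt1 (2.39) and Kdr (0.573). That median rests on the 4 genes that passed the filter, and it was -0.25 over the list with no filter on low counts and -0.40 without blank 3. The defining Pecam1 and Cldn5 stayed near 0, and the list summed to 46.8 to 72.3 CPM under dopamine, against 103 to 262 CPM for blank. As 7 of the 9 genes stayed under 1 FPKM in all libraries, this sum was mostly Cdh5 and Flt1, and it was not tested. Flt1 averaged 20.3 ± 10.4 CPM with dopamine and 43.0 ± 17.0 CPM in blank (SD, n = 3 each), with an adjusted p of 0.9997 by edgeR. Leukocyte and microglia genes (13, of which 6 tested, 0 called, median 0.55) were led by Cd68 (51.3 FPKM), Lyz2 (14.7) and Tmem119 (2.72), with the leukocyte marker Ptprc near 0 and Cd3e at 0. This list summed to 88.3 to 179.8 CPM under dopamine, against 44.6 to 86.4 CPM for blank. Cd68 alone averaged 91.9 ± 33.2 CPM with dopamine and 38.1 ± 17.7 CPM in blank (SD, n = 3 each). Much of the sum was thus a single gene, whose adjusted p was 0.9997 by edgeR, and the sums were not tested. The part of these cell types in the members' values was not tested.

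**Figure D5:**
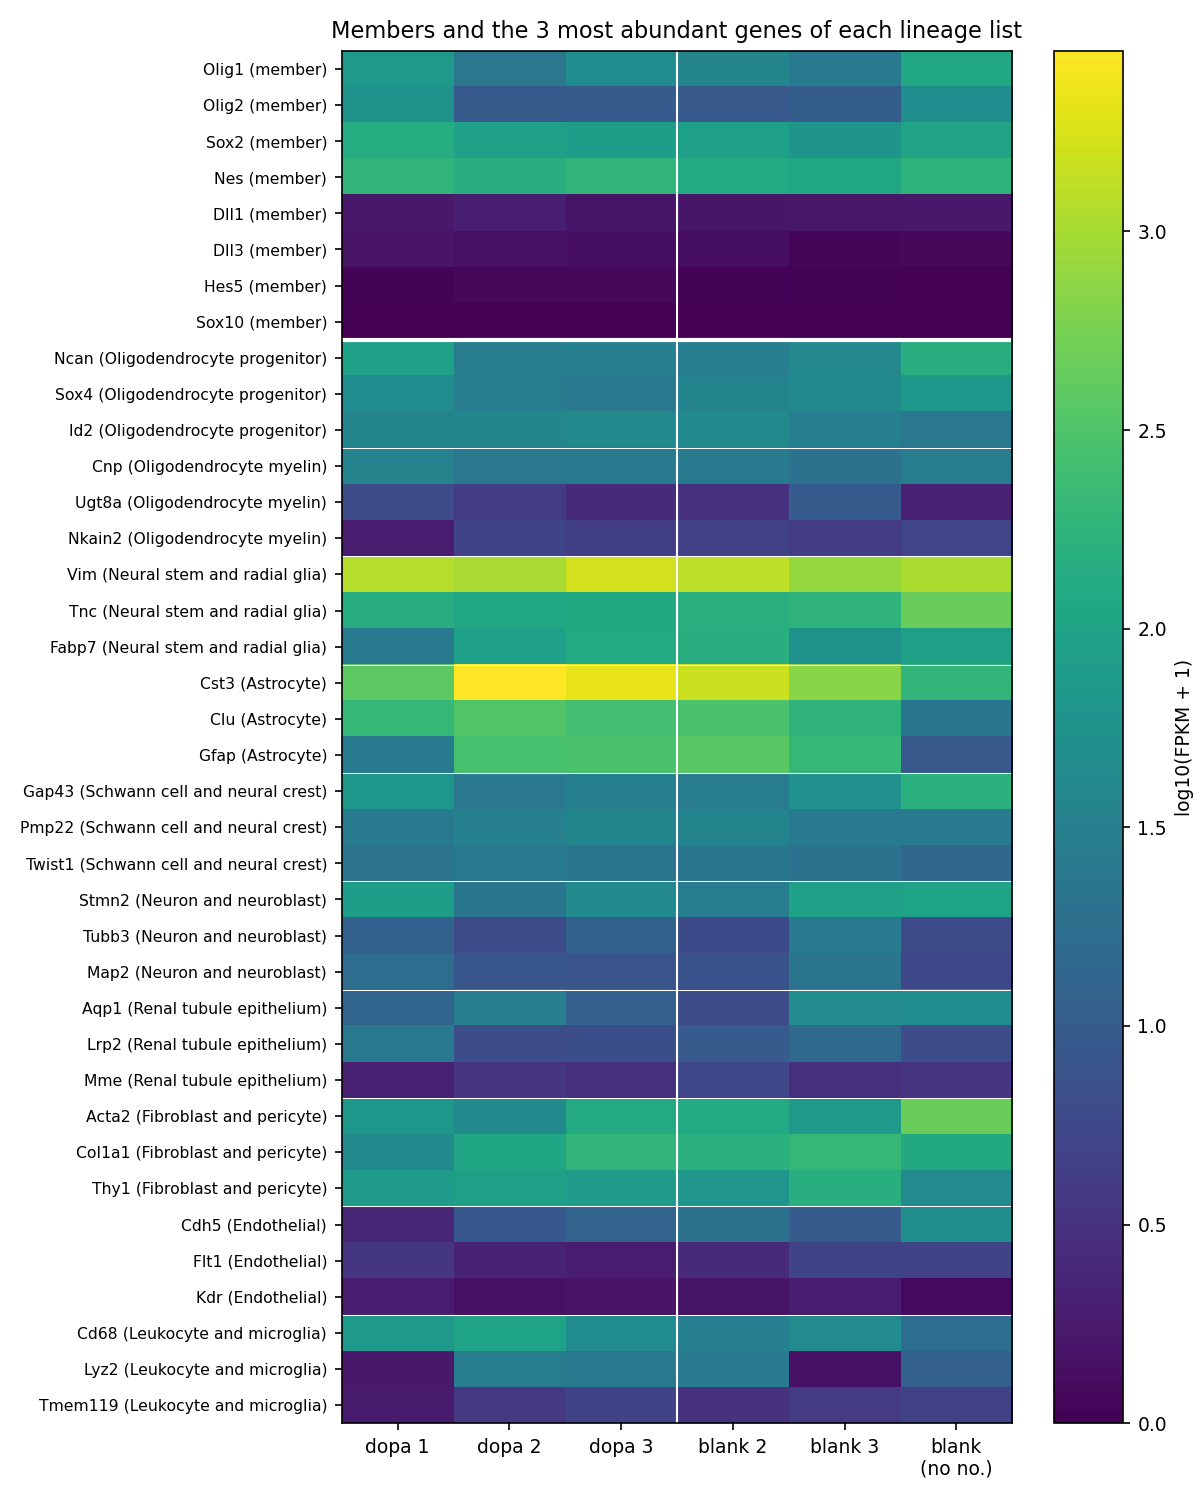
Colour gives log10(FPKM + 1) of the 8 members (top) and of the 3 most abundant genes of each lineage list in the 3 dopamine (left) and 3 blank libraries (right). Vim, Cst3 and Nes are bright in all 6 libraries, Sox10 and Hes5 are dark, and Gfap is dimmest in dopamine 1 and the unnumbered blank library.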

How the data were processed

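The authors deposited a table of 56691 genes with raw counts and FPKM values for each library, per the file headers, on GRCm39, per the submitters' processing notes. Libraries were made with a SMART-Seq HT kit and read as pairs, per the labels' protocols, a chemistry that does not mark strand. Which aligner, counter, strand setting and annotation were used was not given in the sources used here. FPKM was recomputed here from counts, the deposited exonic length and the sum of counts. It matched the deposited FPKM within 0.0051 for all genes in dopamine 2, blank 2 and blank 3 and for 53803 genes in dopamine 1. The other 2 FPKM columns could not be tied to a numbered sample and were not used.

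The deposited counts were tested with edgeR 4.0.16 under R 4.3.3 (filterByExpr, TMM, quasi-likelihood test, 2-sided, no covariate, Benjamini-Hochberg over 15420 genes). Standard errors are the log2 fold change divided by the root of F. Alternatives used DESeq2 1.42.0 and limma 3.58.1. The edgeR, DESeq2 and limma tests were also run on data simulated for the filtered genes, where only DESeq2 called genes when none had been changed. There DESeq2 had the filter on low counts, which its reported run had not, and limma used log2 CPM, unlike its reported runs. How many changed genes were recovered is not reported here. Over pairs of libraries, counts differed by 45.3 to 296 times the counting noise (chi-square over its degrees of freedom), and all 6 were kept as separate libraries. This excess cannot show whether they came from separate cultures, since repeats of the same RNA can also exceed counting noise. Precision is limited by 3 libraries a group, and the 3-count limits cover counting error only, since PCR copies were not marked by molecular identifiers.

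Members and lists were chosen with earlier results of these data known. The 13 lists hold 259 symbols, all matched, 1 of them through a RefSeq synonym. Genes named are the members, the 3 most like each tested member, the 4 most abundant of each Notch list with any at an unadjusted p under 0.05, and the 3 most abundant of each lineage list, except that 1 gene this rule names is not reported here. The defining markers at or near 0 were named after their values were seen. Alternatives are another normalization, filter or tool, leaving out each library, and the libraries numbered 2 and 3 alone. GRCm38.p6 was used for promoter sequences alone.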

Additional observations from a re-analysis of the deposited data

How the results depend on the processing

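Of 15 alternatives, all those using edgeR or limma called 0 genes, as did the reported test, which had 454 genes at an unadjusted p under 0.05. DESeq2 called 24 genes (5 higher, 19 lower), none of them a member or a listed gene. The order of the 8 mean levels was kept under TMM scaling and without any single library. Signs turned for Olig1 under 4 alternatives (range -0.66 to 0.61), for Olig2 under 3 (-1.15 to 1.49) and for Dll1 under 1 (-0.0035 to 0.32), and under none for Sox2 (0.15 to 0.50), Nes (0.28 to 0.53) and Dll3 (0.73 to 1.496), of which Dll3 could be fitted under 13 alternatives, as Dll1 under 14. List medians moved widely: they ran from 0.015 to 1.29 for astrocyte, 0.030 to 1.30 for leukocyte, -1.31 to -0.25 for endothelial and -0.84 to -0.066 for fibroblast genes without a turn of sign. They turned for each other list, from -1.21 to 0.77 for neuron genes, -0.72 to 0.051 for Notch ligands and receptors, -0.48 to 0.26 for renal, -0.35 to 0.093 for Schwann cell and crest, -0.28 to 0.046 for oligodendrocyte progenitor, -0.28 to 0.070 for Notch nuclear, -0.24 to 0.25 for myelin, -0.021 to 0.42 for neural stem and -0.028 to 0.17 for Notch processing genes. The Dll3 and Hes5 values are limited by depth. The labels do not say that shared numbers mark a shared culture, and deviations of same-numbered libraries correlated at r = -0.094. Among the count columns only the numbers 2 and 3 occur in both groups, although the labels list a blank 1 as well. Dopamine 1 and the unnumbered blank library therefore entered neither this correlation nor the replicate block. Whether these 2 libraries share an effect of number was not tested. With the replicate block 0 genes were called, as without it.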
